A study of Mus musculus with 6 samples.

Results

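The genes described here are 7 genes of mouse chromosome 8 that lie between about 95 and 98 Mb in the mm9 build: the lysophospholipid acyltransferase gene Lpcat2, the chemokine genes Ccl22, Cx3cl1 and Ccl17, and the housekeeping genes Ciapin1, Coq9 and Polr2c. They were chosen by gene name and position after their difference between c-Maf KO and WT macrophages was known, so that difference is described below and not tested. The arrays carried 10 probes for the 7 genes, of 55668 non-control probes compared. Of the 10, 9 passed the filter on dim probes, which 28273 probes passed, with 14085 genes of RefSeq symbol among them.

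Ccl22 and Ccl17 are secreted chemokines that both bind the receptor Ccr4 and attract helper and regulatory T cells, and macrophages and dendritic cells make them after IL-4, which signals through Stat6. Cx3cl1, or fractalkine, is made as a membrane-anchored chemokine on a mucin-like stalk, is released by the proteases Adam10 and Adam17, and binds Cx3cr1 on monocytes and macrophages. Lpcat2 re-acylates lysophosphatidylcholine in activated macrophages and also makes platelet-activating factor (PAF), a lipid mediator of inflammation. Ciapin1 acts in cytosolic iron-sulphur protein assembly, Coq9 in the synthesis of coenzyme Q, and Polr2c is a core subunit of RNA polymerase II.

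The samples were labelled polarized M2-like BMM, the usual short form for bone marrow-derived macrophages, and came from fetal liver chimeric mice. There were 3 samples from c-Maf KO chimeras and 3 from WT chimeras. Both groups were cultured with the growth factor M-CSF, added daily in the later part of the culture, and no other polarising agent was given in the labels. Chimeras of this kind carry transplanted blood-forming cells in a host, and the labels gave neither the age or strain of the animals nor how many cultured cells came from the host. Whether the replicates came from separate mice was not given either, so the p-values rest on a spread between samples that may be technical in origin.

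The RNA was hybridised to 1-colour Agilent arrays. A deposited value table held all 6 samples as the ratio of each probe to its own median over the samples, read here as log2, so that 0 stands for the middle of the 6 samples and the pair of samples nearest the middle lies at equal distances on either side of 0. Scanner intensities were used from 5 arrays, c-Maf KO replicates 2 and 3 and WT replicates 1 to 3, with 27225 to 28140 probes well above background per array. Replicate 1 of c-Maf KO enters through the value table only, and its array scan was not used here. The 5 arrays lay on 1 slide with the c-Maf KO arrays in one row and the WT arrays in the other, so the row and the genotype cannot be told apart. All 7 markers of macrophages fixed for the check of identity, among them Csf1r, Adgre1 and Cd68, were well above background on all 5 arrays.

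The deleted gene was checked first. Maf, the gene of the transcription factor c-Maf, lies 20.8 Mb beyond the last Polr2c probe on the same chromosome. Its main probe had -2.22, -2.36 and -1.92 (log2 ratio) in c-Maf KO replicates 1, 2 and 3, against 1.92, 1.98 and 2.03 in the WT samples. All c-Maf KO samples lay below all WT samples, with a difference of -4.14 on the log2 scale (SE 0.12, limma adjusted p = 8.26e-04). A second Maf probe was at -1.74, -2.84 and -3.04 in c-Maf KO, against 1.83, 1.74 and 1.83 in WT, and was not well above background on either c-Maf KO array, so WT was at least 6.69-fold higher there, and limma did not call it (adjusted p = 0.0522). Over all probes that passed the filter, limma called 6 of 28273, or 0.0212%, at an adjusted p under 0.05.

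The bases upstream of the starts of the 4 genes with the larger differences are shown because these genes were higher in the same samples. The windows are the 250 bases upstream of the annotated start in the direction of the gene, from RefSeq on GRCm38.p6, where Lpcat2 is chr8:92855083-92855332, Ccl22 chr8:94745434-94745683, Cx3cl1 chr8:94771930-94772179 and Ccl17 chr8:94810203-94810452, all on the plus strand. Capitals mark every match to one of 5 motifs searched on both strands.
Lpcat2: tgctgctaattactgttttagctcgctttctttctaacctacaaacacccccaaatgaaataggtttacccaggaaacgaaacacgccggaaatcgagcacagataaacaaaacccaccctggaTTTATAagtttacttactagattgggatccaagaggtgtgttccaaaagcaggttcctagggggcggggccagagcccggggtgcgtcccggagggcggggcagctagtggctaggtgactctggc
Ccl22: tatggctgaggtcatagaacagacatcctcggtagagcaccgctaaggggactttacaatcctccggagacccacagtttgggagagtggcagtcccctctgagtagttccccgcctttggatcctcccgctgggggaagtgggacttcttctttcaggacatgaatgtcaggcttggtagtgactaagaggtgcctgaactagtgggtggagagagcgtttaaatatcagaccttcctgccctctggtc
Cx3cl1: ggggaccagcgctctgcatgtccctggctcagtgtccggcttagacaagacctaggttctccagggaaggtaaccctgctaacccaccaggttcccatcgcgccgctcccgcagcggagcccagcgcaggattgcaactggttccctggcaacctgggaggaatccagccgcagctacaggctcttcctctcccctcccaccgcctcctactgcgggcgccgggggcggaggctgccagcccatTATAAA
Ccl17: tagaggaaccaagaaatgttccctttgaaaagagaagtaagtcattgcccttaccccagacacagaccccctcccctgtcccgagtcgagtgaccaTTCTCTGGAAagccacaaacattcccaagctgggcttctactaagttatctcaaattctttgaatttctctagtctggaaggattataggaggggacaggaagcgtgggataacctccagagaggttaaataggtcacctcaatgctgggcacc

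The motifs were the Maf half-site TGCTGA, the AP-1 site TGANTCA, the TATA box TATAAA, a STAT site (TTC and GAA with any 4 bases between them) and an NF-kB site (GGG, any 2 bases, then TTTCC). In Ccl17 the capitals are a STAT match 154 to 145 bases upstream of the start, a motif held by 5.85% of the 32851 upstream windows of the same length. In Cx3cl1 they are a TATA box match directly before the start, and in Lpcat2 a TATA box match on the opposite strand 126 to 121 bases upstream, a motif held by 12.4% of windows. None of the 5 motifs occurred in the Ccl22 window. The Maf half-site, held by 16.1% of windows, occurred in the window of 1 of the 7 genes, Polr2c, on the opposite strand 12 to 7 bases upstream, and AP-1 (6.75% of windows) and NF-kB (1.41%) matches occurred in none of the 7. These matches describe the letters of the windows only.

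Among the chemokine ligands, Ccl22 had the largest difference of the 7 genes among probes that passed the filter, Cx3cl1 was higher in each c-Maf KO sample than in any WT sample, and the mean of Ccl17 was carried by 1 c-Maf KO sample. On the log2 ratio scale the probe of Ccl22 (97274709 to 97274768, plus strand; all probe positions are in mm9) was at 0.64, 0.90 and 0.52 in c-Maf KO replicates 1, 2 and 3, against -0.64, -0.72 and -0.52 in WT replicates 1, 2 and 3. Every c-Maf KO sample thus lay above every WT sample, with a gap of 1.04 between the groups. The group means were 0.69 ± 0.19 in c-Maf KO and -0.63 ± 0.10 in WT (SD, n = 3 each), a difference of 1.32 (SE 0.12) on the log2 ratio scale.

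Ccl22 was dim. Its intensities were 55.5 and 49.1 in c-Maf KO replicates 2 and 3, against 18.6, 17.2 and 21.3 in WT replicates 1, 2 and 3. The spots were well above background on both c-Maf KO arrays and on none of the 3 WT arrays, so only a bound can be given for WT. Against the lowest signal found well above background on each WT array, Ccl22 in c-Maf KO was at least 2.17-fold higher. Under another background correction that adds an offset of 50 to every spot, more than the whole WT intensity of this probe, the Ccl22 difference was 0.40.

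Cx3cl1 (97306185 to 97306244, plus strand) had 0.27, 0.48 and 0.57 (log2 ratio) in c-Maf KO replicates 1, 2 and 3, against -0.27, -0.60 and -0.46 in the WT samples. The groups did not overlap, and the pair closest to each other was replicate 1 of each group. The means were 0.44 ± 0.16 in c-Maf KO and -0.44 ± 0.17 in WT (SD, n = 3 each), a difference of 0.88 (SE 0.12), or 1.84-fold. On the scanner arrays Cx3cl1 measured 1139 and 1399 in c-Maf KO replicates 2 and 3, against 663, 516 and 609 in the WT replicates, and all 5 spots were well above background.

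Ccl17 (97335770 to 97335829, plus strand) had 0.27, 1.37 and 0.05 (log2 ratio) in c-Maf KO replicates 1, 2 and 3, against -0.41, -0.05 and -0.22 in the WT samples. The groups did not overlap, but c-Maf KO replicate 3 and WT replicate 2 were only 0.11 apart, and c-Maf KO replicate 2 stood far above all other samples. The means were 0.57 ± 0.71 in c-Maf KO and -0.23 ± 0.18 in WT (SD, n = 3 each), a difference of 0.80 with an SE of 0.35, or 1.74-fold. Without c-Maf KO replicate 2 the difference was 0.39, and without c-Maf KO replicate 3 it was 1.05. The scanner intensities showed the same sample apart, with 3068 and 1414 in c-Maf KO replicates 2 and 3, against 866, 1089 and 1041 in the WT replicates.

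**Figure D1:**
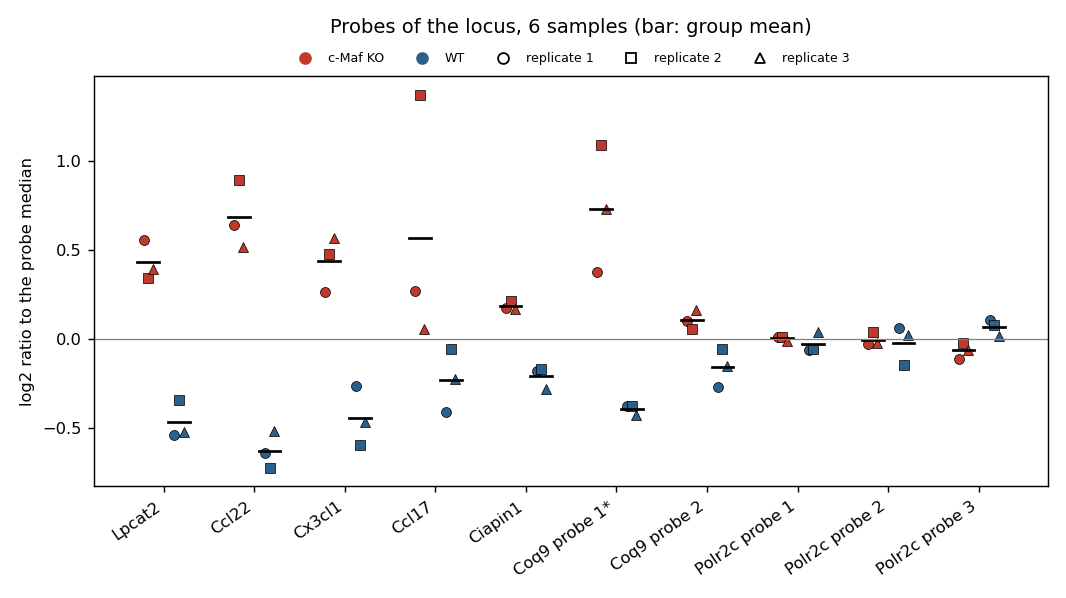
Log2 ratio of each probe to its median over the 6 samples (vertical axis) for the 10 probes of the 7 genes in chromosomal order, with c-Maf KO samples in red left of WT samples in blue, symbols by replicate and a bar at each group mean. The asterisk marks the Coq9 probe that did not pass the filter, and Ccl17 in c-Maf KO replicate 2 (1.37) is the highest single value.

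Lpcat2 (95443101 to 95443160, plus strand), the acyltransferase gene, lies 1.83 Mb before Ccl22. It had 0.56, 0.34 and 0.40 (log2 ratio) in c-Maf KO replicates 1, 2 and 3, against -0.54, -0.34 and -0.52 in WT replicates 1, 2 and 3. All c-Maf KO samples lay above all WT samples with a gap of 0.68. The means were 0.43 ± 0.11 in c-Maf KO and -0.47 ± 0.11 in WT (SD, n = 3 each), a difference of 0.90 (SE 0.091), or 1.87-fold. Its intensities were 672 and 803 in c-Maf KO replicates 2 and 3, against 354, 399.8 and 378 in the WT replicates.

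The differences of Lpcat2, Cx3cl1 and Ccl17 lay closer together than the SE of Ccl17, so their order is not set by these data. Of the 28273 probes, 369 had a larger difference in favour of c-Maf KO than Lpcat2, 394 than Cx3cl1 and 500 than Ccl17. A difference of at least 0.8 was found in 496 probes, or 1.75%. Leaving out 1 sample at a time gave 0.84 to 0.97 for Lpcat2, 1.21 to 1.40 for Ccl22 and 0.80 to 0.97 for Cx3cl1.

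The housekeeping genes beyond Ccl17 had smaller differences. Ciapin1 (97346604 to 97346663, minus strand), whose probe is 10.8 kb from that of Ccl17, had 0.18, 0.21 and 0.17 (log2 ratio) in c-Maf KO replicates 1, 2 and 3, against -0.18, -0.17 and -0.28 in the WT samples. The 3 c-Maf KO values were nearly equal (SD 0.024) and lay above all WT values (SD 0.065). The difference was 0.39 (SE 0.062), or 1.31-fold. On the scanner arrays Ciapin1 measured 2844 and 3168 in c-Maf KO replicates 2 and 3, against 2112, 2089 and 2069 in the WT replicates.

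Coq9 had 2 probes. The one that passed the filter (97378116 to 97378175, plus strand) had 0.10, 0.06 and 0.16 (log2 ratio) in c-Maf KO replicates 1, 2 and 3, against -0.27, -0.06 and -0.15 in the WT samples. The groups did not overlap, with 0.11 between c-Maf KO replicate 2 and WT replicate 2, and the difference was 0.27 (SE 0.077), or 1.20-fold. The other probe (97374758 to 97374817), designed to the transcript ENSMUST00000160364, was not well above background on any of the 5 arrays, with intensities of 14.8 and 13.2 in c-Maf KO replicates 2 and 3 and 5.18, 5.08 and 5.28 in the WT replicates, and no fold is given.

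Ciapin1 and Coq9 are transcribed away from each other. Their RefSeq starts on GRCm38.p6 are separated by 72 bases, chr8:94838341-94838412, shown on the plus strand because both genes share this stretch as upstream sequence, and 79.2% of its bases are G or C. None of the 5 motifs occurred in it or in the 250 bases upstream of either gene.
Ciapin1 to Coq9: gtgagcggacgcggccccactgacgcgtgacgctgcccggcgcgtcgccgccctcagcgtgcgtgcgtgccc

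Polr2c did not follow the other genes. The 2 probes of its RefSeq transcript overlap each other by 4 bases and gave differences of 0.03 (SE 0.059; 97387688 to 97387747) and 0.02 (SE 0.076; 97387744 to 97387803). At the first of them the values were 0.01, 0.01 and -0.01 (log2 ratio) in c-Maf KO replicates 1, 2 and 3, against -0.06, -0.06 and 0.04 in the WT samples, and the groups overlapped at both. The third probe (97394487 to 97394546), 6683 bases further on and designed to the cDNA AK137796, had -0.11, -0.02 and -0.06 (log2 ratio) in c-Maf KO, against 0.11, 0.08 and 0.02 in WT. All c-Maf KO values were lower there, by 0.13 (SE 0.061), with 0.04 between the nearest samples.

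By the probe of highest signal, 6 of the 7 genes lay above WT in all c-Maf KO samples. Over all genes the same was true of 1850 of 14085, or 13.1%, and of 1232, or 8.75%, in the lower direction. Over all probes the groups did not overlap in either direction for 19.4%. Since the 7 genes were chosen on this contrast, nothing is read from their count. The median difference over all genes was 0.01.

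Along the chromosome from Ccl22 to Polr2c, the differences were 1.32 at Ccl22, 0.88 at Cx3cl1 31.4 kb further on, 0.80 at Ccl17 after another 29.5 kb, then 0.39, 0.27 and 0.03 at Ciapin1, Coq9 and the first Polr2c probe. On the scanner scale of the 5 arrays they were 1.34 at Ccl22, 0.97 at Cx3cl1, 0.94 at Ccl17, 0.40 at Ciapin1 and 0.27 at Coq9. Under other settings Ccl17 exceeded Cx3cl1: without c-Maf KO replicate 3 (1.05 against 0.81), without WT replicate 2 (0.88 against 0.80) and under the offset correction (0.91 against 0.89, with Ccl22 at 0.40). Without c-Maf KO replicate 2, Ccl17 was at 0.39 and Ciapin1 at 0.38.

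Other features lie between these probes. The probe of 1700121C10Rik (97318136 to 97318195, minus strand) lies 11.9 kb from the Cx3cl1 probe and 17.6 kb from the Ccl17 probe. It had 0.52, 0.55 and 0.47 (log2 ratio) in c-Maf KO replicates 1, 2 and 3, against -0.47, -1.58 and -1.17 in WT replicates 1, 2 and 3. All c-Maf KO samples lay above all WT samples, and WT replicate 1 was the nearest of the WT samples. Its spots were well above background on both c-Maf KO arrays and on that of WT replicate 1 alone among WT, with intensities of 75.9 and 82.7 in c-Maf KO replicates 2 and 3, against 36.3, 16.5 and 23.7 in the WT replicates. The difference of 1.59 (SE 0.27) did not pass the test (limma adjusted p = 0.168), and under the offset correction it was 0.43. Without WT replicate 1, limma called it (adjusted p = 0.0482, with 0.0482 to 0.397 over the alternatives). Neither WT array then left was well above background, so only a lower bound of 3.28-fold can be given against WT replicates 2 and 3. That bound leaves out WT replicate 1, the only WT sample whose spot was well above background. Over all samples the difference of 1.59 was 3.01-fold, which is less than the bound. On the log2 scanner scale the c-Maf KO mean was -2.55, against -3.53 in WT replicate 1.

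TC1641687, a transcript cluster without a gene name whose probe (97376251 to 97376310, plus strand) lies between the Coq9 probes, was singled out after its values were seen. It was lower in c-Maf KO, at -0.08, -0.31 and -0.58 (log2 ratio), against 0.42, 0.08 and 0.66 in WT. The groups did not overlap, and the difference of -0.71 (SE 0.19) did not pass the test (limma adjusted p = 0.268). TC1611833, the other such feature between the probes of Ccl17 and Polr2c, differed by 0.05.

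**Figure D2:**
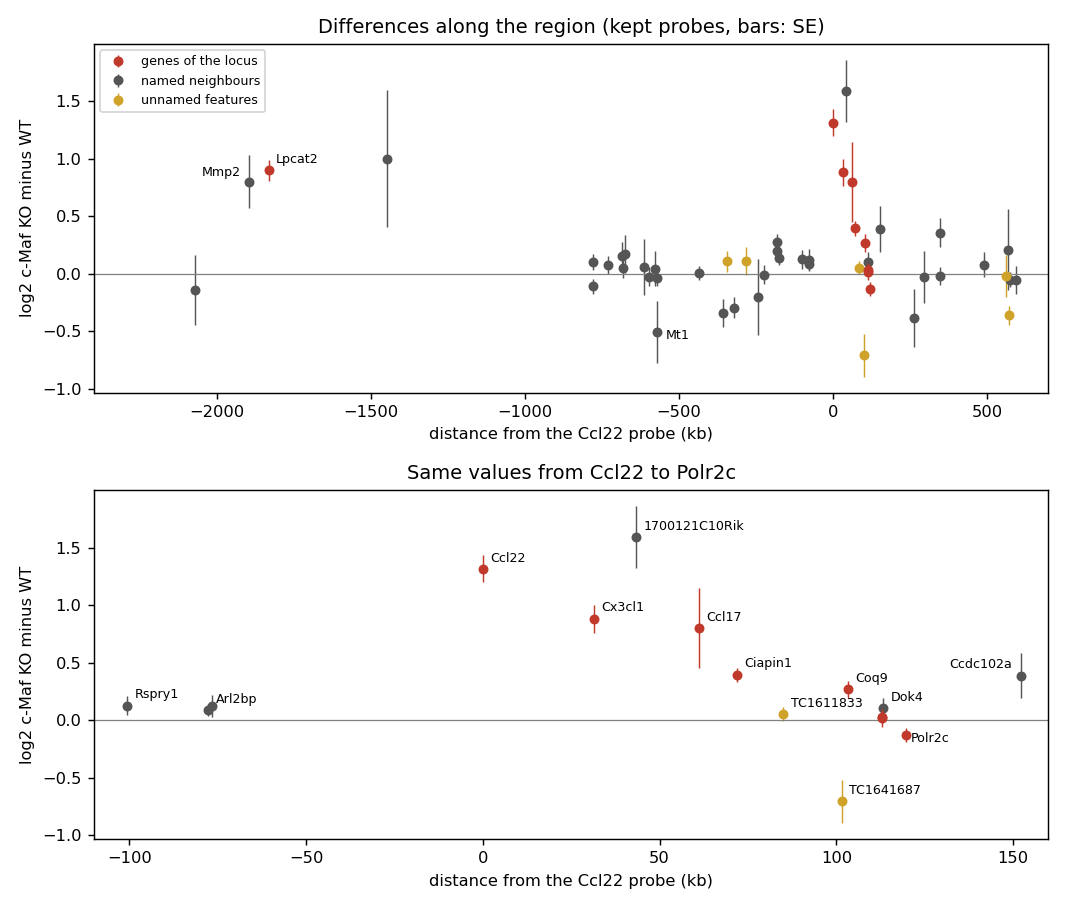
Difference in log2 ratio, c-Maf KO minus WT, with its SE, for each probe that passed the filter, against the distance of the probe from the Ccl22 probe in kb. The lower panel repeats the stretch around Ccl22, Cx3cl1, Ccl17, Ciapin1, Coq9 and Polr2c, where the differences lie at 1.32, 0.88, 0.80, 0.39, 0.27 and near 0, with 1700121C10Rik above them at 1.59 and TC1641687 below at -0.71.

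The named genes around and between the 7 were not chosen for their values. Within 0.5 Mb on either side of the outermost probes there were 46 such genes, of which 30, with 36 probes, passed the filter. Limma called none of the 36 probes at an adjusted p under 0.05, and eBayes with trend and robust options, which called 0.177% of all probes, called 0. At an unadjusted p under 0.05 there were 6, of which 4 were higher, against 12.1% of all probes that passed the filter.

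Of the 36 neighbour probes, 6 lay above WT in all c-Maf KO samples and 4 below, against 10.2% and 9.26% of all probes. Their median difference was 0.07, against -0.0038 for all probes. Between Lpcat2 and Ccl22, a stretch of 1.83 Mb, 23 probes of 17 genes had a median of 0.06, with 3 above and 4 below.

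Single neighbours varied. Mmp2, the gelatinase gene before Lpcat2, had 0.08, 0.32 and 0.54 (log2 ratio) in c-Maf KO, against -0.08, -0.48 and -0.90 in WT, a difference of 0.80 (SE 0.23) that did not pass the test (limma adjusted p = 0.290). Mmp2 lay above WT in all c-Maf KO samples, with replicate 1 of each group nearest to the other. The metallothionein gene Mt1 had a difference of -0.50 at one probe (limma adjusted p = 0.511) and -0.04 at another, and the kinesin gene Kifc3 one of 0.36 (limma adjusted p = 0.364).

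The other genes next to the 7 gave no called difference. Dok4, an adaptor of tyrosine kinases, has a probe (97387985 to 97388044, minus strand) between the second and the third Polr2c probe. It differed by 0.10 and its groups overlapped. Ccdc102a, the next gene beyond Polr2c, differed by 0.39 with overlapping groups (limma adjusted p = 0.496). Capns2, Slc6a2 and Pllp were not well above background on any array.

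The receptors and sheddases of these chemokines were examined as a list of 9 genes, of which 4 passed the filter. Limma, which called 0.0355% of genes over 1 probe per gene, called none of the 4. None had an unadjusted p under 0.05, against 12.1% of all probes, and the groups of all 4 overlapped. Ccr4, the receptor of Ccl22 and Ccl17, was not well above background on any of the 5 arrays, with intensities of 5.48 and 5.61 in c-Maf KO replicates 2 and 3 and 5.16, 4.88 and 6.74 in the WT replicates. Cx3cr1, the receptor of Cx3cl1, had 0.56, 0.05 and -0.05 (log2 ratio) in c-Maf KO, against -0.39, 0.23 and -0.34 in WT, a difference of 0.35 (SE 0.23, limma adjusted p = 0.576). The Cx3cr1 groups overlapped, as they did at a second probe with a difference of 0.27.

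The other CC chemokine ligands, 13 of 19 listed after the filter, had a median difference of 0.16, against 0.01 over all genes. Limma called none, and 4 had an unadjusted p under 0.05, 3 of them higher, against 12.1% of all probes. Without WT replicate 3 the median was 0.03, without c-Maf KO replicate 3 it was 0.09 and without c-Maf KO replicate 2 it was 0.10. The groups did not overlap for 3 higher genes, against 13.1% of all genes, and for 2 lower ones, against 8.75%. The higher ones were the monocyte attractants Ccl7 (0.82, limma adjusted p = 0.312) and Ccl2 (0.81, limma adjusted p = 0.314), and Ccl5 (0.57, limma adjusted p = 0.285). Of the lower ones the larger difference was that of Ccl27a (-0.24, limma adjusted p = 0.293).

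The genes through which IL-4 and GM-CSF, the cytokines known to raise Ccl17 and Ccl22, signal had a median difference near 0. All 13 listed passed the filter, and their median was -0.02, with single genes from -0.19 to 0.21. Limma called none, against 0.0355% of all genes, and none had an unadjusted p under 0.05, against 12.1% of all probes. The groups of 12 overlapped. Kdm6b, a histone demethylase, was lower in all c-Maf KO samples, as were 8.75% of all genes, with a difference of -0.18 (limma adjusted p = 0.421). Stat6 differed by -0.08, Irf4 by -0.19 and Il4ra by 0.16, and these 3 were picked out for their known place on the route to Ccl17 and Ccl22.

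Around Lpcat2, 14 of 15 listed genes of lysophospholipid and PAF metabolism passed the filter, with a median of 0.07 and none called by limma. At an unadjusted p under 0.05 there were 4, of which 3 were higher, against 12.1% of all probes. In 4 genes all c-Maf KO samples lay above all WT samples, against 13.1% of all genes, and in 1 they lay below, against 8.75%. Pla2g4a, the cytosolic phospholipase that releases lysophospholipids, differed by 0.30 (limma adjusted p = 0.199), the secreted PAF acetylhydrolase Pla2g7 by 0.37 (limma adjusted p = 0.251) and the intracellular one Pafah2 by 0.20 (limma adjusted p = 0.360). The acyltransferase gene Mboat7 differed by -0.19 (limma adjusted p = 0.348). The sister genes Lpcat1 (0.11) and Lpcat3 (0.08) and the PAF receptor gene Ptafr (-0.13) had overlapping groups.

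The partners of the housekeeping genes were likewise not called. Of the coenzyme Q genes 11 of 12 passed the filter, with a median of 0.05, and Coq5 (0.14) and Coq7 (0.14), the enzyme whose activity Coq9 assists, were higher without overlap. All 12 listed subunits of RNA polymerase II passed, with a median of 0.05, and Polr2k (0.22) and Polr2l (0.17) were higher without overlap. Of the 8 cytosolic iron-sulphur assembly genes, with a median of 0.10, Ciao2a (0.20) and Ciao1 (0.14) were higher, while Mms19 (-0.28) and Ndor1 (-0.12), the reductase partner of Ciapin1, were lower. At an unadjusted p under 0.05 there were 1, 2 and 2 genes in these 3 lists, against 12.1% of all probes, and limma called 0. Genes without overlap were read against 13.1% of all genes in the higher and 8.75% in the lower direction.

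**Figure D3:**
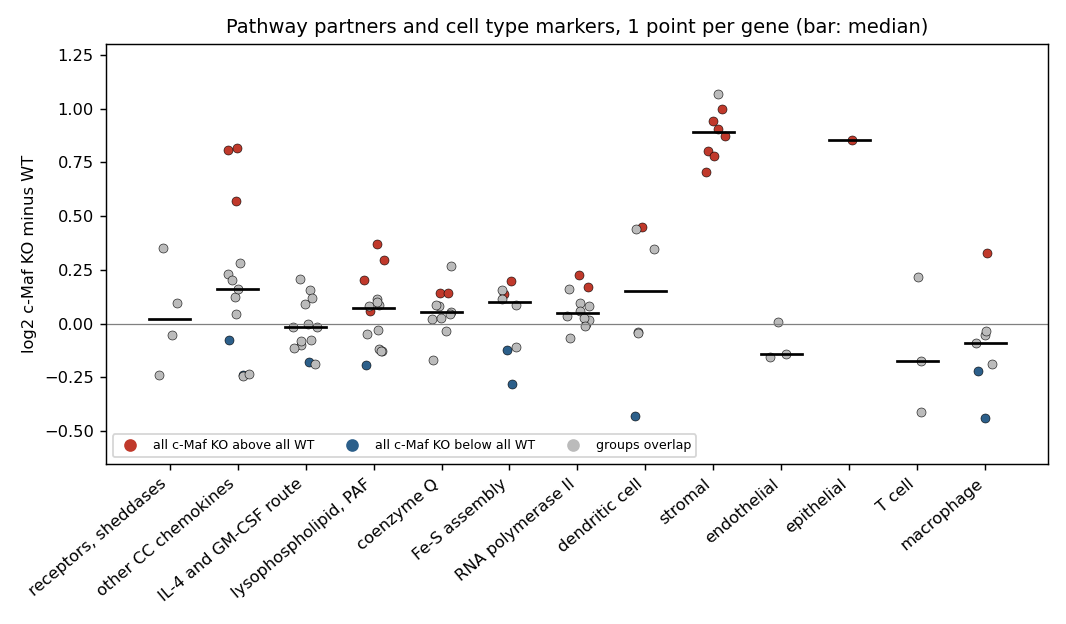
Difference in log2 ratio, c-Maf KO minus WT, for each gene of the pathway and marker lists that passed the filter, coloured by whether all c-Maf KO samples lay above or below all WT samples, with a bar at the list median. The stromal markers lie highest, with a median of 0.89, and the IL-4 and GM-CSF route lies at -0.02.

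Markers of other cell types were examined in the same way. Of 9 stromal markers, which stand for fibroblasts and smooth muscle cells, 8 passed the filter and Lum was not well above background on enough arrays. Their median difference was 0.89, and 7 of the 8 lay above WT in all c-Maf KO samples, against 13.1% of all genes, among them Col3a1 (1.00, limma adjusted p = 0.341) and Col1a2 (0.94, limma adjusted p = 0.256). Limma called none, and 7 had an unadjusted p under 0.05, against 12.1% of all probes. Their summed signal, as a multiple of the 75th percentile of each array, was 239 and 264 in c-Maf KO replicates 2 and 3, against 183, 106 and 120 in WT replicates 1, 2 and 3. Sparc gave more of this sum than any other marker, with an intensity of 53740 in c-Maf KO replicate 2, against 16138 for Tagln. WT replicate 1 was the highest WT sample in this sum, as it was for Cx3cl1. Outside the 7 genes it was also the highest WT sample for 1700121C10Rik, Mmp2, Ccl2 and Ccl7, but not for Kifc3 or Ccl5. Among the 7 genes, WT replicate 1 was not the highest for Lpcat2, Ccl22, Ccl17, Ciapin1 or the Coq9 probe that passed the filter. The Polr2c probes differed among themselves. The part of stromal cells in the differences of the 7 genes and of the other named genes was not tested. In these bulk samples fewer cells of a type and less RNA per cell cannot be told apart.

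Endothelial and epithelial cells are known sources of Cx3cl1. Of 7 endothelial markers 3 passed the filter, with a median of -0.14 and overlapping groups, and Cdh5, Tek, Emcn and Tie1 did not pass. Their summed signal was 38.7 and 33.9 in c-Maf KO replicates 2 and 3, against 37.9, 41.7 and 36.0 in the WT replicates. Of 5 epithelial markers only Cdh1 passed, with a difference of 0.86 (limma adjusted p = 0.190) and a signal over the 75th percentile of 0.77 and 0.96 in c-Maf KO replicates 2 and 3, against 0.45, 0.42 and 0.41 in the WT replicates, while Epcam, Krt8, Krt18 and Krt19 did not pass.

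Dendritic cells are a known source of Ccl17. Of 9 dendritic cell markers 6 passed the filter, and Clec9a, Xcr1 and Btla did not. The chemokine receptor gene Ccr7 had 0.08, 1.46 and -0.39 (log2 ratio) in c-Maf KO replicates 1, 2 and 3, against -0.27, -0.08 and 0.17 in the WT samples. The lectin gene Cd209a had 0.01, 1.01 and -0.13 in c-Maf KO, against -0.01, 0.18 and -0.32 in WT. Both were highest in c-Maf KO replicate 2, the sample in which Ccl17 was highest, and both were singled out after their values were seen. Ccl22 was also highest in that sample, at 0.90, but nearer to c-Maf KO replicates 1 and 3 (0.64 and 0.52) than Ccl17 was.

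The mean over the 6 dendritic cell markers was 0.45 in c-Maf KO replicate 2 and -0.07 to 0.04 in the other 5 samples. That mean was carried by Ccr7 and Cd209a, the genes singled out above. In c-Maf KO replicate 2 Flt3 was at -0.06, Zbtb46 at -0.0016, Itgax at 0.11 and Fscn1 at 0.20. The 6 markers differed among themselves: Fscn1 was higher in all c-Maf KO samples (0.45, limma adjusted p = 0.276), Flt3 was lower in all of them (-0.43, limma adjusted p = 0.451), and Zbtb46 was not highest in c-Maf KO replicate 2. Their summed signal was 318 and 276 in c-Maf KO replicates 2 and 3, against 294, 313 and 298 in the WT replicates. Nearly all of this sum came from Itgax, with an intensity of 1.378e+05 in c-Maf KO replicate 2, against 297 for Ccr7. The sum therefore says little of the other markers. The part of such cells in the Ccl17 and Ccl22 values was not tested.

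**Figure D4:**
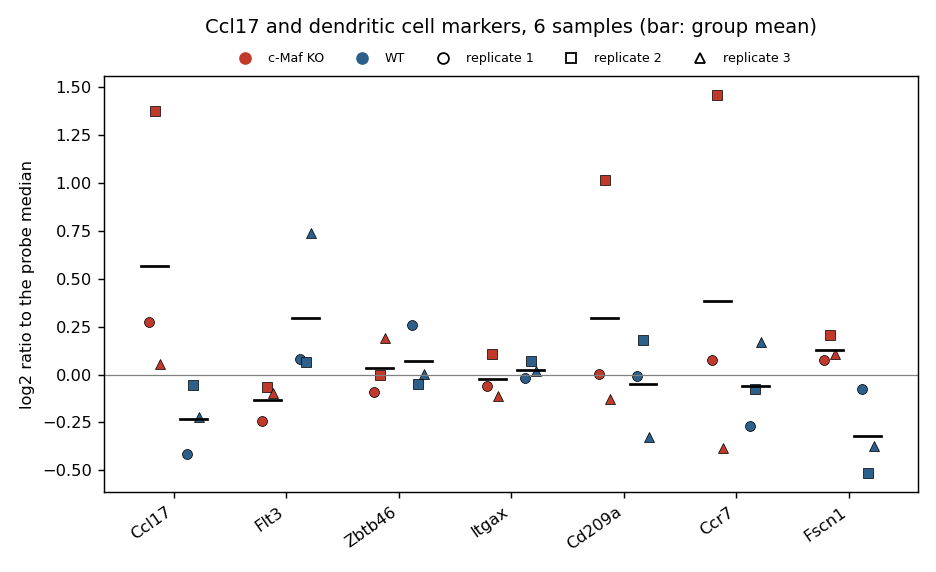
Log2 ratio to the probe median (vertical axis) of Ccl17 and the 6 dendritic cell markers that passed the filter, with c-Maf KO samples in red left of WT samples in blue, symbols by replicate and a bar at each group mean. The square of c-Maf KO replicate 2 stands apart in Ccl17 (1.37), Cd209a (1.01) and Ccr7 (1.46).

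T cell markers, 3 of 5 after the filter, had a median of -0.17 with overlapping groups. The macrophage markers had a median of -0.09, and 3 of the 7 did not overlap, 1 of them higher, against 13.1% of all genes, and 2 lower, against 8.75%. Lyz2, the lysozyme gene, was higher by 0.33 (limma adjusted p = 0.319), while Fcgr1, an IgG receptor gene, differed by -0.44 (limma adjusted p = 0.388) and the F4/80 gene Adgre1 by -0.22 (limma adjusted p = 0.406). Limma called none in either list, with 0 and 3 at an unadjusted p under 0.05, against 12.1% of all probes.

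The genes whose pattern over the 6 samples was most like that of each of the 4 larger responders were found by Pearson correlation of the log2 ratios with 14084 genes, as a description over 6 samples that fall into 2 groups. For Lpcat2 they were Fkbp2 (r = 0.998), Rgcc and Ly6a (r = 0.997 each), and 119 genes reached an r of 0.95. Correlation takes no account of size: in this order they differed by 0.07, 0.50 and 1.51, against 0.90 for Lpcat2. For Ccl22 they were Stk10 (r = 0.993), the chemokine receptor gene Ccr2 and Itga7 (r = 0.991 each), with 103 genes at 0.95. Their differences were 0.16, 0.73 and 0.91, against 1.32 for Ccl22. Ccl22 and Itga7 were not well above background on any WT array, so their WT values here lie below what the arrays measured. All r values of Ccl22 rest on such WT values. For Cx3cl1 they were Igdcc4, Fstl3 (r = 0.996 each) and Wdr77 (r = 0.994), with 168 genes. Their differences were 0.92, 0.61 and 0.20, against 0.88 for Cx3cl1. For Ccl17, whose pattern is set by c-Maf KO replicate 2, they were Tlk2 (r = 0.988), Tkt and Immp2l (r = 0.987 each), with 53 genes. Their differences were 0.20, 0.09 and 0.17, against 0.80 for Ccl17. None of these 12 genes lies on chromosome 8.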

How the data were processed

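The authors extracted intensities with Agilent Feature Extraction 10.7.3.1, as the submitters' processing notes give it, and the deposited scanner files hold processed intensities, well-above-background flags and mm9 probe positions, per the file headers. The authors' deposited value table holds a linear ratio per probe and sample; set against the scanner values it proved to be the signal scaled to the array's 75th percentile and divided by the probe's median over the 6 samples. How the authors filtered it was not given in the sources used here. Here its log2 was taken, as deposited and without further scaling, and the scanner scale was log2 of processed intensity over the 75th percentile.

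Spots of a probe were averaged, control spots left out, and 13 probes dropped because all spots were marked as outliers on an array. The filter kept probes well above background on 2 or more of the 5 arrays. Differences are c-Maf KO minus WT means. limma 3.58.1 (lmFit, eBayes; R 4.3.3) was fitted to all 28273 probes with Benjamini-Hochberg adjustment, called at an adjusted p under 0.05, and tested on simulated data first. For genes with several probes, lists used the probe of highest signal. Probe gene names were updated through RefSeq accessions (28020 probes). RefSeq windows are on GRCm38.p6 and are not mixed with mm9 positions. The arrays' number limits the precision.

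The 7 genes, the lists and the rule for named genes were chosen with earlier results of these data known. Named are the 7 genes, Maf, Ccr4 and Cx3cr1, from each list up to 4 genes of largest difference whose groups do not overlap, likewise of the neighbours plus those next to one of the 7, and 3 genes of like pattern for each of 4 genes. Alternatives were the 5 scanner arrays, normexp background correction, quantile normalization, centring, other filters, another variance model, averaging the probes of a gene, the replicate number as a block and leaving out each sample.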

Additional observations from a re-analysis of the deposited data

How the results depend on the processing

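Over 91 recomputed differences of the 7 genes under the alternatives, 88 moved by less than the replicate SD of the gene and 88 kept their sign. The changes of sign were all in Polr2c, since all 60 without it kept theirs. The replicate SD of Ccl17 was 0.52, so its change from 0.80 to 0.39 without c-Maf KO replicate 2 is counted among the 88 that moved by less. On leaving out 1 sample of a group of 3, a difference always moves by less than the replicate SD used here. That holds whatever the values, so for those settings the count of small moves shows no stability. With normexp background correction (offset 50, 5 arrays) the difference was 0.73 for Lpcat2 and 0.40 for Ccl22, where the offset exceeds the WT intensity. The mean of the 3 Polr2c probes was -0.028, against 0.030 for the first probe. The count of called probes, 6, was 22 with normexp, 2 with no filter, 50 with eBayes trend and robust, and 2 to 31 on leaving out 1 sample (31 without WT replicate 1; 2 without c-Maf KO replicate 2 or 3; 3 without WT replicate 2 or 3). The count of probes without overlap, 5491, was 8316 on the 5 arrays, 9161 with normexp and 7715 to 10611 on leaving out 1 sample, where fewer samples overlap less by construction. Called neighbours, 0, numbered 0 to 1 on leaving out 1 sample; the 1 was 1700121C10Rik without WT replicate 1. Of the listed genes 0 were called. Of 104 recomputed list medians, 97 moved by less than the spread between replicates; the dendritic cell median, 0.15, was -0.06 without c-Maf KO replicate 2, and on averaging the probes of each gene the endothelial median was -0.03 and the lysophospholipid median 0.03.

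With the replicate number as a block 7 probes were called, and 0 neighbours and 0 listed genes. Same-numbered samples did not deviate together (r of -0.0043, -0.0441 and 0.0815), and only c-Maf KO replicate 3 was closest to its own number. No pairing by number was thus seen in these values.

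With 3 samples a group and scanner files of 5 arrays, Ccl22 in WT and the second Coq9 probe lie below what the arrays measured, and row of the slide and genotype cannot be told apart.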
